A study of Mus musculus with 96 samples.

Results

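The mir-23, mir-27 and mir-24 hairpins are encoded as a pair of paralogous clusters in the mouse genome, and their levels are described here in the liver of mice with different Htt CAG repeat lengths. The members were chosen by miRBase accession: MI0000141 (mir-23b), MI0000142 (mir-27b) and MI0000231 (mir-24-1) of the mir-23b cluster, and MI0000571 (mir-23a), MI0000578 (mir-27a) and MI0000572 (mir-24-2) of the mir-23a cluster. These are 6 of the 1187 hairpins in the deposited table. The names were given with the accessions, since no table used here pairs them, and the hairpin lengths recovered from the deposited values (74, 73, 68, 75, 87 and 107 nt, in the same order) equalled those of RefSeq.

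Liver small RNA was sequenced from heterozygous knock-in mice, in which exon 1 of 1 Htt allele is replaced by the human sequence and the other allele is normal. The knocked-in exon holds 50, 92 or 140 CAG repeats in the Q50, Q92 and Q140 mice and 20 in the Q20 mice. Expansion of this repeat in people leads to Huntington's disease. The controls of the Q50, Q92 and Q140 mice were the Q20 mice pooled with wild-type (WT) littermates from 2 lines, Q20 and Q50. Males and females were sampled at 6 and 10 months, 4 mice per group in 24 groups, for 96 libraries. Totals per library lay between 2195052 and 6662671 estimated counts (median 5149568). Liver is a mix of cell types, and in such bulk samples fewer cells of a type and less RNA per cell cannot be told apart. Because hairpins carry no names in the table, markers of liver cell types were not analysed here.

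As background, each cluster is transcribed as 1 primary transcript, from which the hairpins are cut by Drosha and Dicer. The mature strand loaded into Argonaute recognises messenger RNAs mainly through its seed, bases 2 to 8. In mouse fetal liver cells the miR-23b cluster has been shown to repress Smad proteins, the signal carriers of TGF-β. In liver miR-27b has been linked to the repression of genes of lipid metabolism. In human cells miR-23a and miR-23b repress glutaminase, and miR-24 has been shown to repress the hepatocyte transcription factor HNF4A.

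The mature 3p strands are shown because they determine which messenger RNAs each member can recognise, and how far reads can be assigned to one paralog. They are from RefSeq on GRCm38.p6, 5′ to 3′, with the seed in capitals.
mmu-miR-23a-3p: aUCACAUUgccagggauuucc
mmu-miR-27a-3p: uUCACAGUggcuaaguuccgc
mmu-miR-27b-3p: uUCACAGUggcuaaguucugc
mmu-miR-24-3p: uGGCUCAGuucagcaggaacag
The 27a and 27b strands share the seed UCACAGU and 20 of 21 bases, and they differ by C19U, counted from 1 at the 5′ end of miR-27a-3p. No other of the 1679 mature entries in the RefSeq table has this seed. The mature miR-24-3p is the same sequence in both mir-24 hairpins. Their 5p strands have the same seed and are 23 and 22 bases long. Compared position by position from the 5′ end without a gap, they are alike in 17 of 22 bases. An alignment with a gap, which could match more bases, was not made.
mmu-miR-24-1-5p: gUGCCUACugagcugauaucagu
mmu-miR-24-2-5p: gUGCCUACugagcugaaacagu
A read of miR-24-3p alone thus cannot be assigned to mir-24-1 or to mir-24-2. The third 3p strand of the first cluster is mmu-miR-23b-3p. It had no entry in the RefSeq table, so it is not shown and was not compared with miR-23a-3p. How far reads can be assigned to mir-23b or mir-23a was therefore not examined.

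The mir-23b cluster lies on the plus strand of chromosome 13, with mir-23b at chr13:63300484-63300557, mir-27b at chr13:63300712-63300784 and mir-24-1 at chr13:63301208-63301275, a span of 792 bases. The mir-23a cluster lies on the plus strand of chromosome 8, with mir-23a at chr8:84208518-84208592, mir-27a at chr8:84208672-84208758 and mir-24-2 at chr8:84208815-84208921, a span of 404 bases. The hairpins of the first are separated by 154 and 423 bases, and those of the second by 79 and 56 bases. The only other hairpins of the RefSeq table within 10000 bases were Mir3074-1 (chr13:63301199-63301283) and Mir3074-2 (chr8:84208825-84208907), which overlap mir-24-1 and mir-24-2 on the minus strand.

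The levels of the members differed widely, also within a cluster. Levels are given as counts scaled to the library total (CPM), and between hairpins only as the deposited FPKM, which also divide by hairpin length. Over the 96 libraries mir-27b ranged from 18282 to 28672 CPM with a median of 23709 CPM, and it held 2.36% of all counts and ranked 10 of all hairpins by FPKM. MI0000141 (mir-23b) had a median of 960.4 CPM (645.2 to 2516 CPM) and mir-24-1 a median of 33.1 CPM (15.6 to 103.0 CPM). In the other cluster mir-27a had a median of 732 CPM (438 to 1206 CPM), and mir-23a 356 CPM (232 to 1144 CPM).

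Per length, mir-27b was far above its cluster mates, although all are cut from the same transcript. The FPKM ratio of mir-27b over mir-23b had a median of 25.2 in the 92 libraries retained for the tests, with a range of 11.3 to 37.3, and that of mir-23b over mir-24-1 had a median of 27.2 (7.43 to 53.7). In the mir-23a cluster the ratio of mir-27a over mir-23a had a median of 1.79 (0.989 to 2.37). In the paralogs whose ratio was taken, mir-27b was above mir-27a and mir-23b above mir-23a. The ratio of mir-27b over mir-27a had a median of 38.7 (28.6 to 64.6), and that of mir-23b over mir-23a a median of 2.76 (2.36 to 3.55).

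MI0000572 (mir-24-2) was barely present in the table. Its estimated count was under 0.01, here taken as 0, in 63 of 96 libraries. It was at an estimated count of 4.46 in 30 and at 8.92 in 3. These are whole steps of a single value rather than a spread, and its highest level was 2.06 CPM. If 1 read were 1 estimated count, a count of 0 would allow up to 3 counts, or 0.450 to 1.37 CPM at the depth of those 63 libraries. The smallest value above 0 was 4.46, so a read of this hairpin may weigh more, and the limit would then be too low. It covers counting error only. Of the 33 libraries above 0, 15 were from 10-month and 18 from 6-month mice, 16 from males and 17 from females. After rounding, this hairpin did not pass the filter of at least 1 CPM in at least 8 libraries in any comparison, so that 5 of the 6 members were tested. Without the filter it was not called in any of the 20 comparisons, with a log2 difference of -0.25 ± 0.43 for age (SE, adjusted p 0.747 in edgeR). With counts not rounded it passed the filter for age and the interactions and was not called there either (age -0.32 ± 0.43, adjusted p 0.540 in edgeR). How the authors' counting split reads of the shared miR-24-3p between the hairpins was not tested, and levels of mir-24-1 and mir-24-2 are uncertain.

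The estimated counts of mir-23b, mir-24-1, mir-23a and mir-27a were not whole numbers in any of the 96 libraries, and those of mir-27b were not in 95 (tolerance 0.0001). Reads shared between the near-identical mir-27a and mir-27b are one way in which a count can become fractional, and its part here was not tested. The lowest counts in any library were 43627 for mir-27b, 3012 for mir-23b, 1654 for mir-27a, 1054 for mir-23a and 88.6 for mir-24-1, so that counting error weighs most on mir-24-1.

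At 10 months 4 libraries lay far from the others of that age in Euclidean distance (standardized connectivity Z.k below -5) and were left out of the tests. They were replicate 2 of the Q92 males, replicate 1 of the Q92 females, and replicate 3 of the WT males from each of the Q20 and Q50 lines. These libraries bear on the members, because mir-23a was at 998 CPM in the Q92 male and 1144 CPM in the WT male of the Q20 line, against 263 to 389 CPM in the 22 retained 10-month controls. MI0000141 (mir-23b) was likewise at 2212 CPM in this Q92 male and 2516 CPM in this WT male, against 789 to 1264 CPM in the retained controls.

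The 24 groups were put in order by the mean of their retained libraries. The highest group mean was 1.24 times the lowest for mir-27b, 1.29 times for mir-23b, 1.39 times for mir-23a, 1.54 times for mir-27a and 2.33 times for mir-24-1. In none of the 5 hairpins did any of the 23 steps between neighbouring group means exceed the larger SD of that pair of groups, but steps between sorted means are small by construction. The lowest group was the 10-month WT males of the Q50 line for 4 of them, with 21140 ± 1176 CPM of mir-27b and 314 ± 49.9 CPM of mir-23a (SD, n = 3). The highest group was the 6-month Q50 females for mir-27b (26129 ± 1531 CPM, n = 4) and the 10-month Q92 females for mir-23a (438 ± 27.1 CPM, n = 3). These Q92 females were also the highest group for mir-27a, at 948 ± 73.9 CPM (SD, n = 3).

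Age was compared in 44 mice at 10 months and 48 at 6 months. Of the 5 members tested, mir-27b, mir-24-1, mir-23b and mir-23a were lower and mir-27a was higher at 10 months, all past the threshold of the edgeR quasi-likelihood test (Benjamini-Hochberg adjusted p under 0.05), where 57.8% of the 408 hairpins tested were called. The median size of the difference was 0.11 on the log2 scale for the 5 members and 0.22 for all hairpins tested. The differences in mir-27b, mir-24-1 and mir-27a were called under each of the 10 alternative settings. Those of mir-23b and mir-23a were called under 7 of these settings. They were lost with library totals alone, without the abundance filter and with all libraries kept. With scaling by library totals alone they were 0.01 and 0.02 on the log2 scale. With it mir-27b was at -0.09, mir-24-1 at -0.33 and mir-27a at 0.23. That scaling moved the median of all hairpins by 0.12, and 69.7% of all hairpins called were then higher at 10 months, against 53.4% with TMM. Relative to the median of all hairpins the members differed as before, by -0.22 for mir-27b, -0.46 for mir-24-1, -0.12 for mir-23b, -0.11 for mir-23a and 0.10 for mir-27a.

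**Figure D1:**
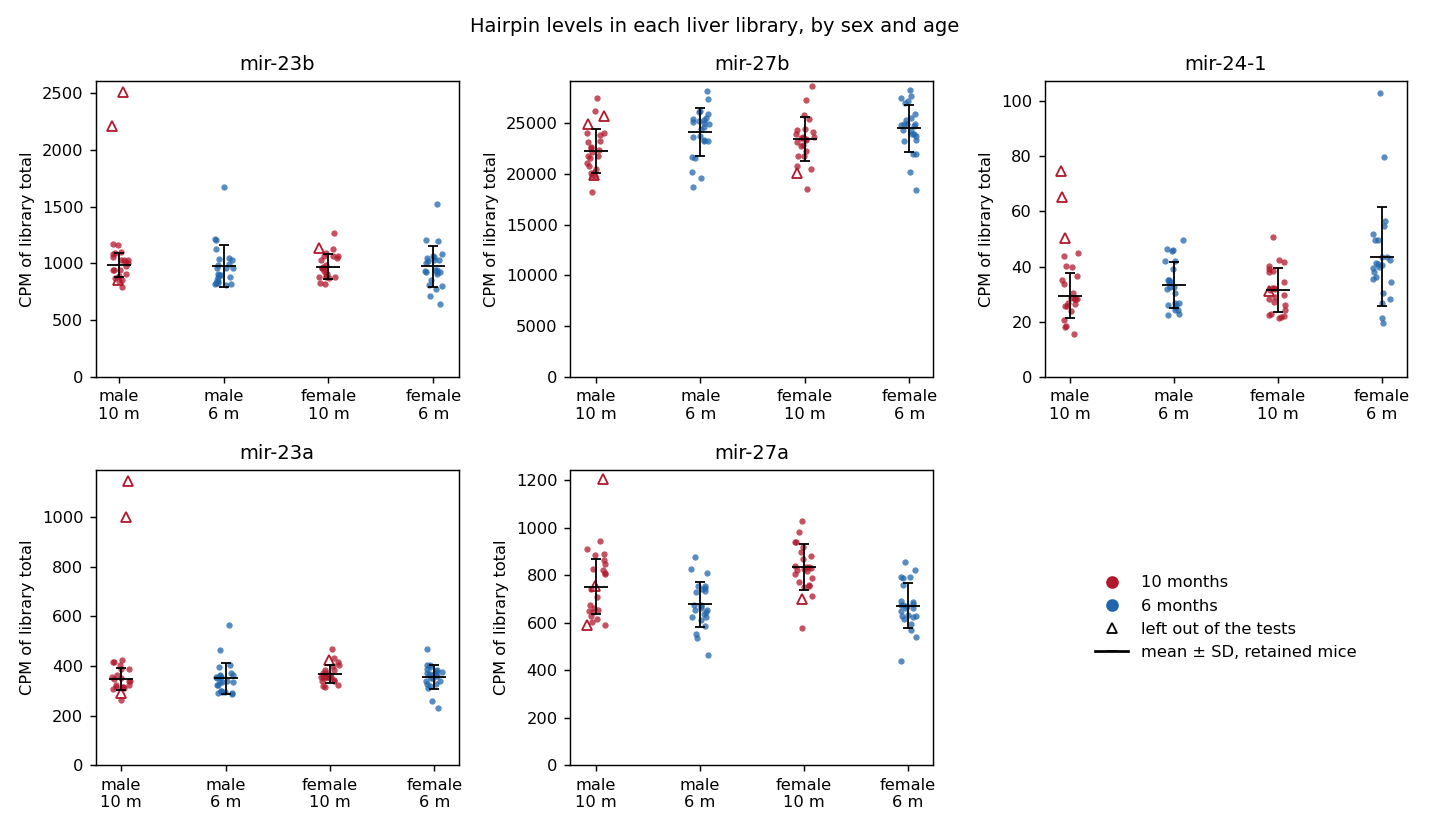
Levels of 5 hairpins in CPM of the library total (vertical axes, from 0) in each mouse, by sex and age (horizontal axes), with the 10-month group of each sex beside its 6-month group; bars are the mean ± SD of the retained mice and open triangles are the 4 libraries left out of the tests. Most 10-month females lie above the mean of the 6-month females for mir-27a and below it for mir-24-1, while the ages overlap for every hairpin.

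In CPM, mir-27b averaged 22903 ± 2222 in 10-month mice (SD, n = 44) and 24326 ± 2331 in 6-month mice (SD, n = 48). It ran from 18282 through a median of 23028 to 28672 CPM at 10 months, and from 18429 through 24813 to 28342 CPM at 6 months. The ages overlapped almost wholly, yet 38 of 44 10-month mice were below the 6-month mean of their sex. The fitted difference was -0.22 ± 0.04 (log2, SE), or 1.16-fold lower at 10 months, with an adjusted p of 1.3e-07 in edgeR.

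MI0000231 (mir-24-1) showed the widest difference with age. It averaged 30.6 ± 8.10 CPM at 10 months (SD, n = 44) and 38.5 ± 14.7 CPM at 6 months (SD, n = 48), with medians of 28.8 and 35.8 CPM. The fitted log2 difference was -0.46 ± 0.09 (SE), 1.38-fold lower, with an adjusted p of 1.28e-05 in edgeR. It was below the 6-month mean of its sex in 36 of 44 mice, 14 of 21 males and 22 of 23 females.

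MI0000578 (mir-27a), whose mature strand differs from that of mir-27b in a single base, was the member that was higher at 10 months. It averaged 794 ± 112 CPM at 10 months (SD, n = 44) and 675 ± 93.9 CPM at 6 months (SD, n = 48). The fitted log2 difference was 0.11 ± 0.04 (SE), 1.08-fold, with an adjusted p of 0.0132 in edgeR. At 10 months 11 mice were above the highest 6-month mouse, which was at 877 CPM. In females 22 of 23 10-month mice were above the 6-month mean, and in males 12 of 21.

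The fitted age differences of mir-23b and mir-23a were small. Their log2 differences were -0.11 ± 0.04 and -0.10 ± 0.03 (SE), with adjusted p of 0.00928 and 0.00572 in edgeR. In CPM no drop was seen, as mir-23b averaged 980 ± 106 at 10 months and 975 ± 183 at 6 months (SD, n = 44 and 48), and mir-23a averaged 359 ± 40.6 at 10 months and 353 ± 55.0 at 6 months. With all 96 libraries kept the log2 differences were -0.03 for mir-23b (adjusted p 0.593) and 0.00 for mir-23a (adjusted p 0.952).

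The sample labels hold tags such as L6, here called lane tags, but do not say what they stand for. Only L6 and L7 held retained libraries of both ages. Within L6 (24 mice at 10 months and 18 at 6 months) and L7 (8 and 27 mice), the log2 CPM difference was -0.12 and -0.10 for mir-27b, -0.61 and -0.20 for mir-24-1, and 0.30 and 0.11 for mir-27a. For mir-23b it was 0.12 and -0.11, and for mir-23a 0.11 and -0.09, so these did not keep their sign. The labels do not say whether the ages were sequenced together, and a tag seen at both ages may stand for different runs. Age and sequencing run thus cannot be told apart, also within a tag.

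The ratio of paralogs within a library does not depend on library scaling. The ratio of mir-27b over mir-27a was lower at 10 months in both sexes. Per length, its median was 35.7 in 10-month males and 42.6 in 6-month males, and 34.1 in 10-month females and 43.2 in 6-month females. On the log2 scale the ratio of counts was 4.90 ± 0.14 in 10-month males (SD, n = 21) and 5.16 ± 0.15 in 6-month males (n = 24), a difference of -0.26, and 4.82 ± 0.10 in 10-month females (n = 23) and 5.20 ± 0.19 in 6-month females (n = 24), a difference of -0.38. None of the 44 10-month mice was above the 6-month mean of its sex. The permutation test gave p = 1e-05 in each sex, the smallest that 100000 resamples can give, and an adjusted p of 4e-05 over the 8 ratio tests (two-sided).

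**Figure D2:**
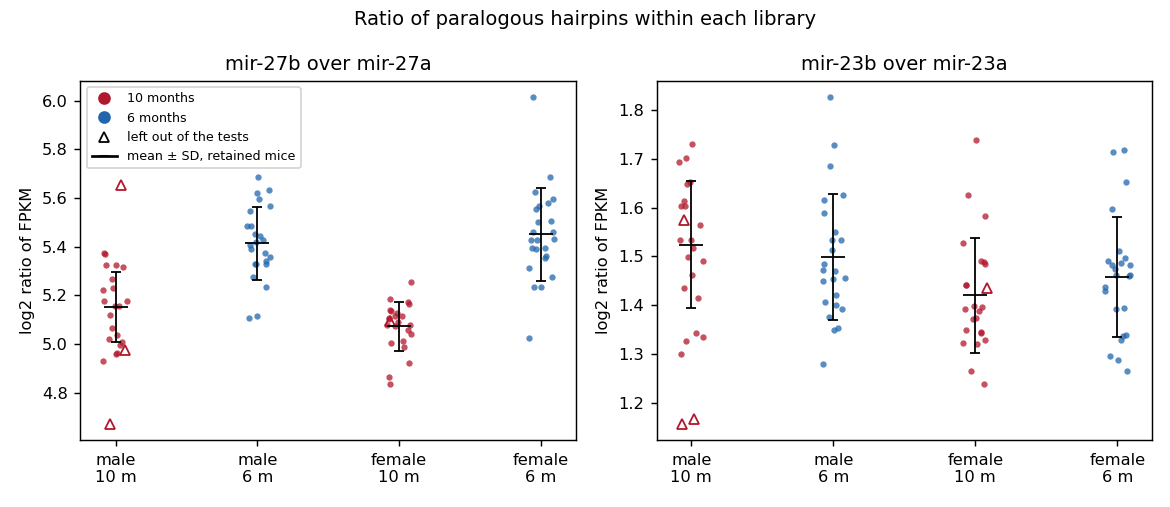
Log2 ratio of deposited FPKM (vertical axes, not starting at 0) of mir-27b over mir-27a and of mir-23b over mir-23a in each mouse, by sex and age; bars are the mean ± SD of the retained mice and open triangles are libraries left out of the tests. The ages overlap for both ratios, and for mir-27b over mir-27a every retained 10-month mouse lies below the 6-month mean of its sex.

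The ratio of mir-23b over mir-23a was not found to differ between ages, at log2 differences of 0.03 in males (permutation p = 0.513) and -0.04 in females (permutation p = 0.283; adjusted p 0.513 and 0.377). Its median per length was 2.90 in 10-month and 2.77 in 6-month males, and 2.63 in 10-month and 2.76 in 6-month females. Between sexes it was higher in males at 10 months, by 0.10 on the log2 scale (n = 21 males and 23 females) and in 16 of 21 males against the female mean, with a permutation p of 0.00864 and an adjusted p of 0.023. With all libraries kept the difference was 0.08 and the adjusted p 0.182, and leaving out replicate 2 or replicate 4 throughout gave 0.194 or 0.127. The ratio of mir-24-1 over mir-24-2 was not taken, because mir-24-2 was at 0 in most libraries.

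Sex was compared in 24 males and 24 females at 6 months, and in 21 males and 23 females at 10 months. None of the 5 members was called at 6 months, where 38.2% of 374 hairpins were, and at an unadjusted p under 0.05 only mir-24-1 passed. At 10 months mir-27a alone was called, lower in males, where 45.2% of 383 hairpins were called. The median size of the sex difference was 0.02 at 6 months and 0.06 at 10 months on the log2 scale for the members, against 0.20 and 0.21 for all hairpins tested.

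MI0000578 (mir-27a) averaged 751 ± 116 CPM in 10-month males (SD, n = 21) and 834 ± 95.7 CPM in 10-month females (SD, n = 23). It ran from 590 through a median of 743 to 943 CPM in males, and from 578 through 829.5 to 1026 CPM in females, so that the sexes overlapped. The fitted log2 difference, male minus female, was -0.14 ± 0.05 (SE), 1.10-fold lower, with an adjusted p of 0.0147 in edgeR, and 15 of 21 males were below the female mean. The log2 CPM difference was -0.20 within lane tag L5, -0.18 within L6 and -0.07 within L7. With size factors of DESeq2, with its Wald test or with all libraries kept, the adjusted p was 0.0684, 0.0638 and 0.0601, and the call was lost. At 6 months the sexes were at 677 ± 95.2 CPM in males and 672 ± 94.6 CPM in females (SD, n = 24 each). The difference between the sex differences at the ages was -0.17 ± 0.08 (log2, SE), with an adjusted p of 0.322 in edgeR, and no hairpin of 408 was called for it (0%).

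MI0000231 (mir-24-1) had 33.4 ± 8.33 CPM in 6-month males and 43.6 ± 17.9 CPM in 6-month females (SD, n = 24 each). The highest female was at 103.0 CPM and the highest male at 49.6 CPM, and 20 of 24 males were below the female mean. The log2 difference was -0.31 ± 0.13 (SE) with an adjusted p of 0.0554 in edgeR, which missed the threshold. It passed with the DESeq2 Wald test, with library totals alone and without the lane tag (adjusted p 0.0493, 0.0349 and 0.0382). It also passed when any 1 of 26 of the 48 libraries was left out, so the value lies at the threshold. The other members had sex differences of at most 0.05 on the log2 scale at 6 months, with approximate 95% intervals that reached 0.16.

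**Figure D3:**
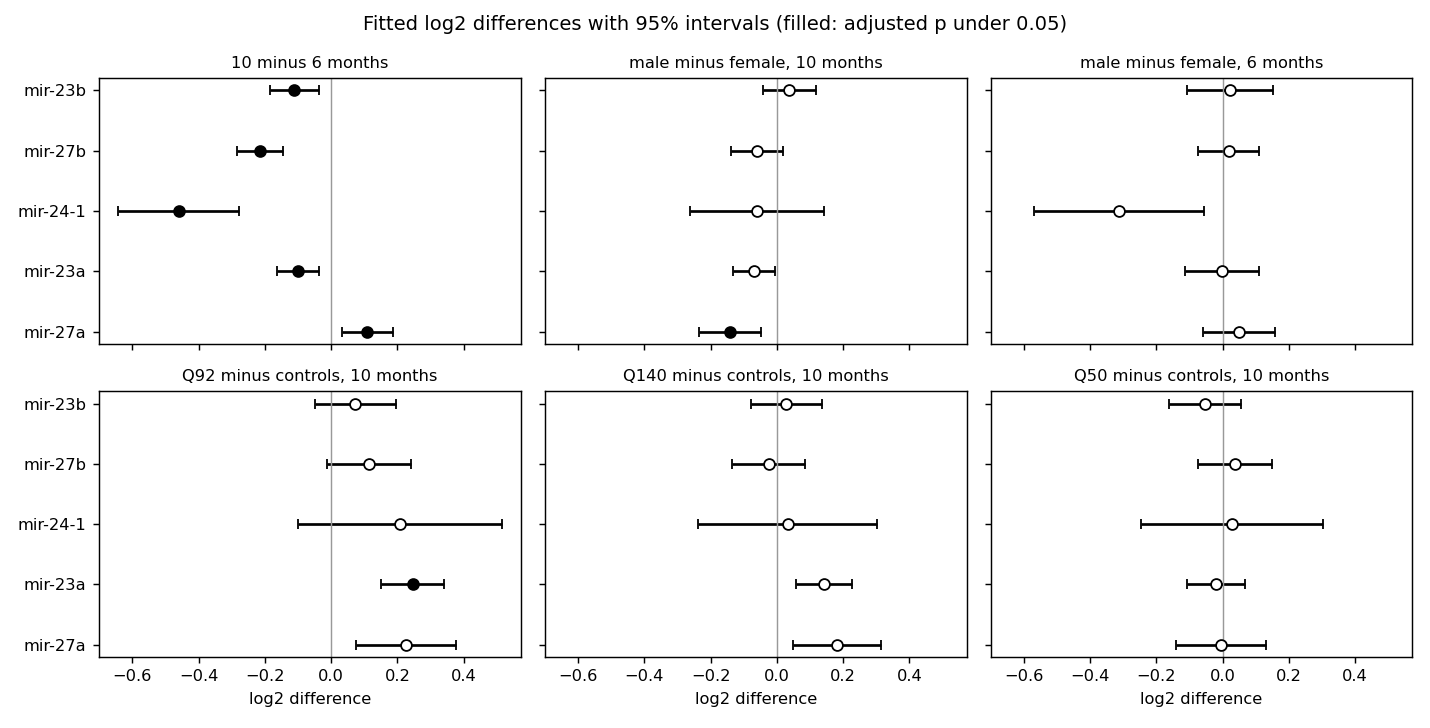
Fitted log2 differences (horizontal axes) of 5 hairpins with approximate 95% intervals, for age, sex at each age, and Q92, Q140 and Q50 against controls at 10 months; filled points passed an adjusted p of 0.05 in edgeR and open points did not. All 5 are filled for age, mir-27a alone for sex at 10 months and mir-23a alone for Q92.

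For the Htt genotype, Q50, Q92 and Q140 mice were compared with 24 controls at 6 months and 22 retained controls at 10 months. At 6 months no member was called in Q50, Q92 or Q140 mice, nor for CAG length as a number, and none reached an unadjusted p under 0.05. The share of all 374 hairpins called there was 0% for Q50, Q140 and CAG length and 0.267% for Q92. The members' log2 differences lay between -0.17 and 0.09. At 10 months mir-23a was called in Q92 mice, where 1.04% of 383 hairpins were called, and for CAG length, where 2.09% were. No member was called in Q140 mice (1.31% of all hairpins called) or in Q50 mice (0% called). The controls are shared by these comparisons, so they are not independent of each other. Each CAG length is a separate mouse line, and no WT littermates of the Q92 and Q140 lines were sampled. Repeat length and line thus cannot be told apart.

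MI0000571 (mir-23a) was at 403, 423 and 315 CPM in the 10-month Q92 males and at 468, 415 and 432 CPM in the 10-month Q92 females. The controls ran from 263 through a median of 346 to 389 CPM (n = 22). Thus 5 of the 6 Q92 mice were above every control, and 1 male was below the control median. The mean was 409 ± 51.3 CPM in Q92 mice (SD, n = 6) and 342 ± 28.9 CPM in controls (SD, n = 22). The fitted log2 difference was 0.25 ± 0.05 (SE), 1.19-fold, with an adjusted p of 0.00446 in edgeR, and mir-23a ranked 1 of 383 by p but 123 by size. The log2 CPM difference was 0.28 within lane tag L6 and 0.27 within L7, and L5 held no Q92 mouse.

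The Q92 call rests on leaving out the poorly connected libraries. With these kept, Q92 mice averaged 485 ± 212 CPM (n = 8) and controls 374 ± 167 CPM (n = 24), since 1 library of each side was near 1000 CPM or above. The log2 difference was then 0.34, with an adjusted p of 0.287. When any single one of the 44 retained libraries was left out, the call stayed, with adjusted p between 0.00135 and 0.0461.

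In Q140 mice at 10 months mir-23a was at 341, 415, 388 and 414 CPM in males and at 363, 399, 384 and 357 CPM in females. All 8 were above the mean of the controls of their sex and 3 were above the highest control. The mean was 383 ± 27.1 CPM (SD, n = 8), against 342 ± 28.9 CPM in controls. The log2 difference was 0.14 ± 0.04 (SE) with an adjusted p of 0.0792 in edgeR, which missed the threshold, and the DESeq2 Wald test gave 0.0337. With all libraries kept it was 0.02, with an adjusted p of 0.977. The Q50 mice averaged 342 ± 31.7 CPM (SD, n = 8), with a log2 difference of -0.02 ± 0.04 (SE).

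Over CAG length as a number, mir-23a rose by 0.14 ± 0.04 on the log2 scale per 100 repeats at 10 months (SE, adjusted p 0.018 in edgeR). The slope was 0.04 within lane tag L5, 0.21 within L6 and 0.28 within L7. The call was lost with WT mice alone as controls (adjusted p 0.144), with Q20 mice alone (0.101), without the abundance filter (0.108) and with all libraries kept (0.74). It was also lost without Q92 female replicate 2 or 3 or without Q140 female replicate 2 (adjusted p 0.0503 to 0.0575).

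**Figure D4:**
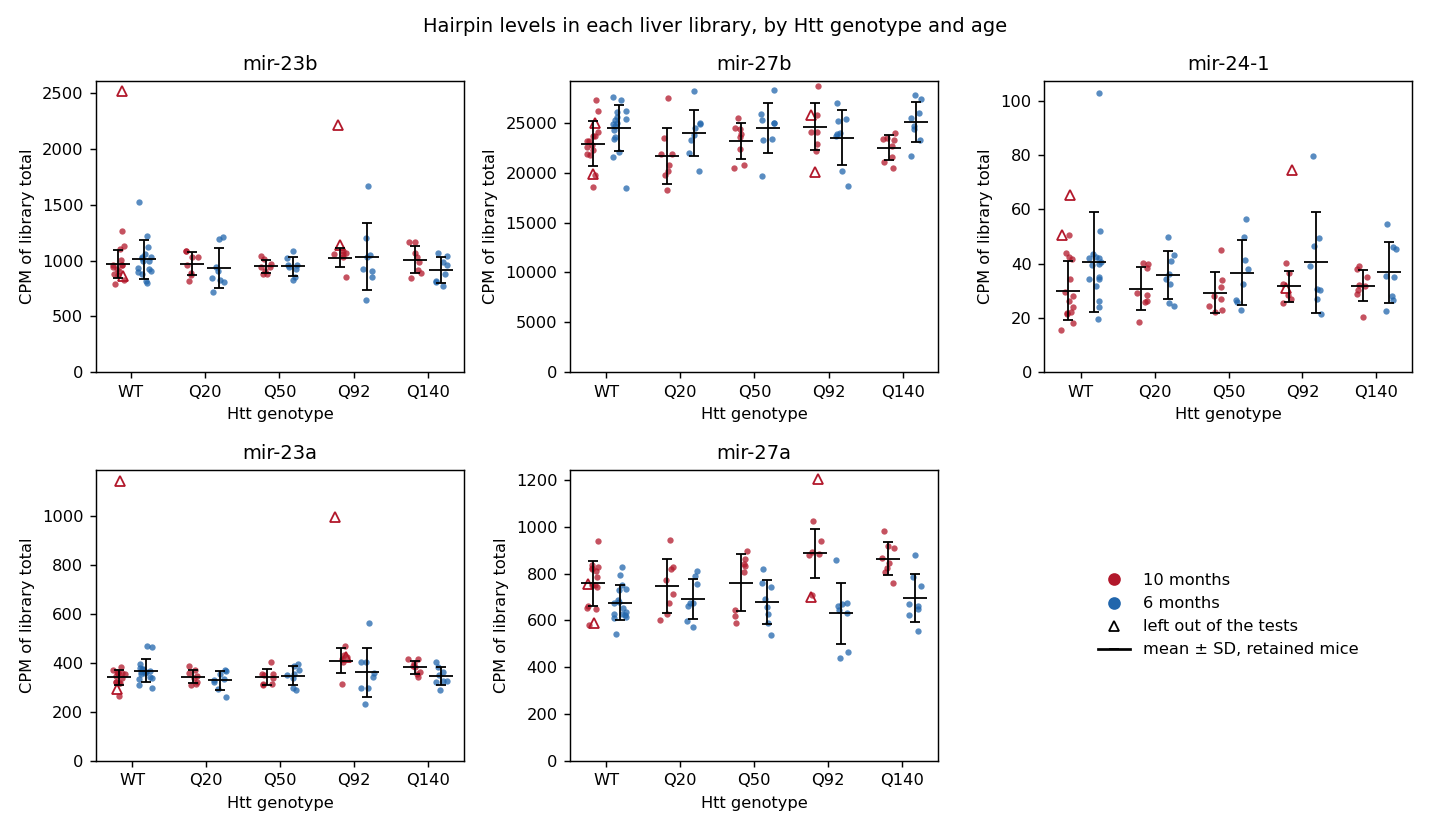
Levels of 5 hairpins in CPM of the library total (vertical axes, from 0) in each mouse by Htt genotype (horizontal axes, in order of CAG length), with 10-month mice left of 6-month mice; bars are the mean ± SD of the retained mice and open triangles are the 4 libraries left out of the tests. For mir-23a the 10-month Q92 mice average 409 CPM and the 6-month Q92 mice spread from 232 to 563 CPM.

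MI0000578 (mir-27a), the neighbour of mir-23a, was not called for the Htt genotype. At 10 months it averaged 888 ± 104 CPM in Q92 mice (SD, n = 6) and 864 ± 71.1 CPM in Q140 mice (SD, n = 8), against 755 ± 101 CPM in controls (SD, n = 22). Against the control mean of the same sex, 5 of 6 Q92 and 7 of 8 Q140 mice were higher. On the log2 scale it differed by 0.22 ± 0.08 in Q92 and 0.18 ± 0.07 in Q140 mice (SE; adjusted p 0.195 and 0.181 in edgeR), and the slope per 100 repeats was 0.16 ± 0.05 with an adjusted p of 0.0654. For the slope the DESeq2 Wald test gave 0.0483 and library totals alone 0.0167. In 10 of the 12 alternative settings the slope was not called, with adjusted p up to 0.208. The third hairpin of this cluster, mir-24-2, was tested only without the filter, with log2 differences of -0.19 ± 1.01 in Q92 and -0.90 ± 0.90 in Q140 mice at 10 months (SE; adjusted p 1.0 and 0.808 in edgeR).

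The mir-23b cluster was not called in any genotype at 10 months. In 10-month Q92 mice mir-27b, the most abundant member, had 24625 ± 2342 CPM (SD, n = 6), against 22479 ± 2464 CPM in controls (n = 22), and all 6 Q92 mice were above the mean of the controls of their sex. Its log2 difference was 0.11 ± 0.06 (SE, adjusted p 0.359 in edgeR). In Q140 mice it had 22515 ± 1282 CPM (SD, n = 8). MI0000141 (mir-23b) averaged 1027 ± 85.8 CPM in Q92 and 1008 ± 121 CPM in Q140 mice, against 968 ± 116 CPM in controls. The widest interval was that of mir-24-1 in Q92 mice, from -0.10 to 0.51 on the log2 scale around 0.21 (adjusted p 0.551 in edgeR).

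Whether the genotype difference changed between the ages was tested as an interaction. No member was called for Q50, Q92, Q140 or CAG length by age, where 0%, 0.245%, 0% and 0% of 408 hairpins were called. The only member with an unadjusted p under 0.05 was mir-27a in Q92 mice, with an interaction of 0.29 ± 0.11 (log2, SE) and an adjusted p of 0.211 in edgeR. At 6 months it averaged 631 ± 131 CPM in Q92 mice (SD, n = 8) and 681 ± 77.7 CPM in controls (SD, n = 24). The difference of Q92 mice in mir-23a was called at 10 months and not at 6 months, but its interaction with age was not (0.18 ± 0.09, adjusted p 0.365 in edgeR).

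When the ages were combined by signed Z, no member was called. MI0000571 (mir-23a) had Z = 3.63 in Q92 mice with an adjusted p of 0.0517 in edgeR, and 0.273% of 366 hairpins were called. This value lies at the threshold and passed it when any 1 of 30 of the 92 libraries was left out. With single libraries left out, the adjusted p ran from 0.0128 to 0.231. In 8 of the 12 alternative settings it was not called, with adjusted p up to 0.466 (WT alone as controls). For CAG length mir-23a had Z = 2.46 and mir-27a Z = 2.22, both with an adjusted p of 0.417 and 0.546% of hairpins called. For Q140 mice the highest was Z = 2.16 for mir-27a (adjusted p 0.623), and for Q50 mice all members lay between -1.16 and 0.76, with 0% of hairpins called in each.

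The relation between members was followed from mouse to mouse as the deviation of log2 CPM from the mean of the group, in 92 libraries and 10 pairs of 5 hairpins. Of these, 6 pairs passed an adjusted p of 0.05 (permutation test with 100000 resamples, Benjamini-Hochberg over the 10). The resampling did not allow for the group means that were taken out, so these p are somewhat too small. Relations near the threshold are therefore uncertain. The highest values were between paralogs on different chromosomes. MI0000141 (mir-23b) and mir-23a had Pearson r = 0.83 and Spearman rho = 0.77, and mir-27b and mir-27a had r = 0.68 and rho = 0.70. Each had a permutation p of 1e-05, the smallest that the resamples can give, and an adjusted p of 3.33e-05. Without the 2 libraries farthest from the median, r was 0.79 and 0.68. Within 5 combinations of age and lane tag with 6 or more libraries, r was 0.62 to 0.92 for the first pair and 0.52 to 0.90 for the second.

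Cluster mates on the same transcript gave other values. In the mir-23a cluster mir-23a and mir-27a had r = 0.53 and rho = 0.58 (permutation p = 1e-05, adjusted p 3.33e-05), and 0.30 to 0.57 within lane tags. This r was 0.32 with TMM-scaled CPM (adjusted p 0.00653) and 0.33 without replicate 2 of every group (adjusted p 0.011). In the mir-23b cluster mir-23b and mir-27b had r = 0.03 and rho = 0.07 (permutation p = 0.803 and 0.513). For mir-27b and mir-24-1 r was -0.03 (rho = -0.02, permutation p = 0.799), and for mir-23b and mir-24-1 it was 0.25 (rho = 0.27, permutation p = 0.0156, adjusted p 0.0311), or 0.16 without the 2 farthest libraries. Without replicate 1 or replicate 4 of every group that last relation had an adjusted p of 0.157 or 0.207, and with all libraries kept its r was 0.42. The differences between these r were not tested.

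The remaining pairs across the clusters gave weak relations. For mir-23b and mir-27a r was 0.24 (rho = 0.23, permutation p = 0.0229, adjusted p 0.0382), but -0.03 with TMM-scaled CPM, and for mir-24-1 and mir-27a it was -0.25 (rho = -0.17, permutation p = 0.0152, adjusted p 0.0311), while its rho had an adjusted p of 0.154. With all libraries kept this r was -0.16 (adjusted p 0.185), and with Z.k computed over all hairpins -0.18 (adjusted p 0.130). Without replicate 2 of every group r was 0.05 for mir-23b and mir-27a, and without replicate 3 it was -0.09 for mir-24-1 and mir-27a. For mir-27b and mir-23a r was 0.12 (rho = 0.24), and for mir-24-1 and mir-23a 0.12 (rho = 0.16). Within lane tags the sign of r changed in each of these 4 pairs. All members of a library share its total, with which mir-23b had r = -0.37, mir-23a -0.34, mir-27a -0.13, mir-27b 0.09 and mir-24-1 0.08. The part of reads shared by near-identical paralogs in these relations was not tested.

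**Figure D5:**
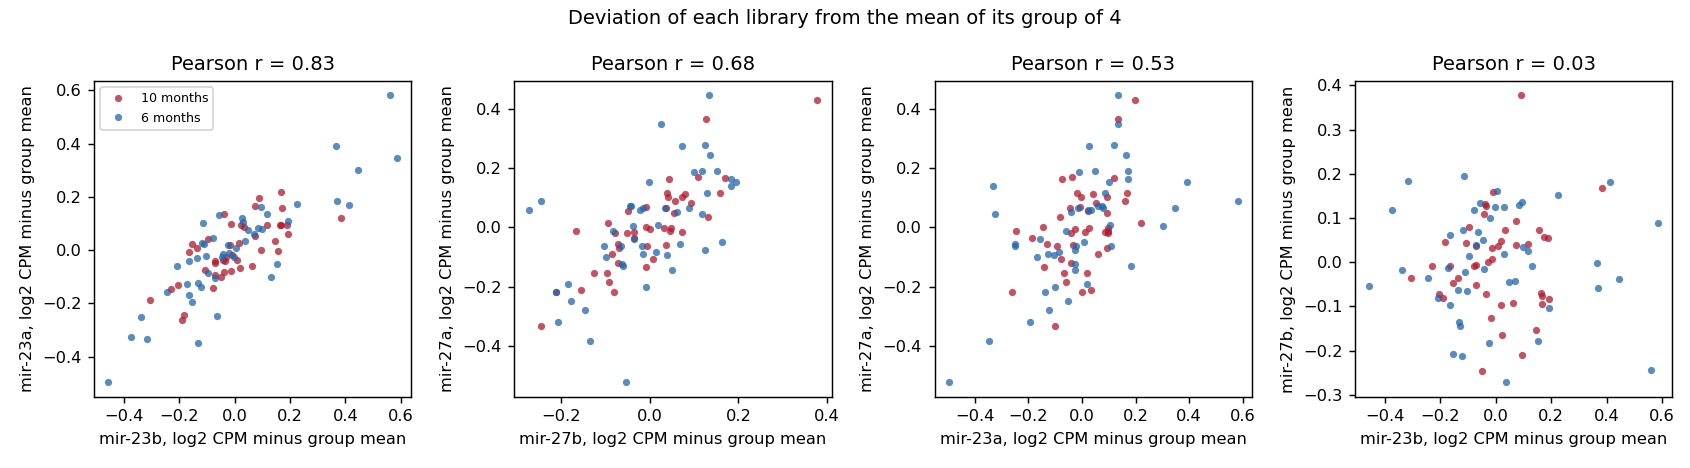
Deviation of log2 CPM from the group mean (both axes) in each of the 92 retained mice for mir-23b against mir-23a, mir-27b against mir-27a, mir-23a against mir-27a and mir-23b against mir-27b, coloured by age. Pearson r is 0.83, 0.68, 0.53 and 0.03 in that order.

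Across the 24 group means of log2 CPM (a pseudocount of 1 CPM), the hairpins most like each cluster among 204 others of at least 10 CPM were sought as a description. For the mean of the mir-23b cluster these were MI0014104 (83 nt, r = 0.72), MI0000170 (65 nt, r = 0.69), MI0004665 (109 nt, r = 0.69), MI0000257 (63 nt, r = 0.64) and MI0014108 (49 nt, r = 0.64). For the mir-23a cluster they were MI0003491 (67 nt, r = 0.60), MI0000408 (82 nt, r = 0.54), MI0000598 (95 nt, r = 0.53), MI0000158 (66 nt, r = 0.49) and MI0000696 (91 nt, r = 0.49). This cluster holds MI0000572 (mir-24-2), which was at 0 in 63 libraries. The highest group mean of mir-24-2 was 0.85 CPM. How far this hairpin near the floor weighs on the list of the mir-23a cluster was not tested. Of the members themselves, mir-23b and mir-23a had r = 0.72 over the group means, mir-23a and mir-27a 0.59, and mir-23b and mir-27b -0.10. Group means share sex, age and library scaling, so these values describe a common pattern only.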

How the data were processed

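Per the study's methods, short strand-specific reads of liver small RNA were aligned to mm10 with STAR and counted per microRNA with HTSeq, and the labels name CASAVA 1.8.2. The authors deposited estimated counts per hairpin and FPKM values. The counts are not all whole, which HTSeq alone would not give, and no source used here says how they arose. They were rounded for the tests, in place of the counts the design had assumed. FPKM served for levels between hairpins and for lengths.

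Z.k was computed within each age from variance-stabilized counts, and libraries below -5 were dropped (0 at 6 and 4 at 10 months). The quasi-likelihood F test of edgeR 4.0.16 (TMM, R 4.3.3) was run on hairpins that reached 1 CPM in 8 or more libraries, adjusted by Benjamini-Hochberg over all hairpins, at a threshold of 0.05. TMM scales libraries so that the bulk of hairpins stays level. Covariates were sex and lane tag, genotype and line for sex, and sex and genotype for age. The lane tag was taken for the batch covariate of the study, whose methods do not define it. CAG length was 7 for WT. DESeq2 1.42.0 was an alternative. Ratios and relations were tested by permutation with numpy 2.4.6. For counts of mice above or below, the comparison was with same-sex controls (females for sex, 6-month mice for age).

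The members are the 6 named hairpins. The members and lists were chosen with earlier results of these data known, and the hairpins used for Z.k follow that earlier processing. No pair of the 144 within groups held identical values. Fits were checked on simulated counts.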

Additional observations from a re-analysis of the deposited data

Results flagged for a closer look

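In 100 combinations of group and member with 4 retained libraries, 8 had a single library far from the other 3 by Dixon's ratio, where chance gives about 1 in 20. For mir-27b these were Q140 female replicate 3 at 10 months (20507 CPM, the others at 23415 to 24003), Q92 female replicate 3 at 6 months (27029 CPM, the others at 23723 to 23996) and WT of the Q50 line female replicate 4 at 10 months (18527 CPM, the others at 22822 to 23688). For mir-27a they were Q140 female replicate 3 at 6 months (786.64 CPM, the others at 648 to 672) and Q92 male replicate 2 at 6 months (466.39 CPM, the others at 646 to 676). For mir-23b they were Q20 male replicate 4 at 6 months (1209.4 CPM, the others at 809 to 841) and Q50 female replicate 3 at 10 months (1043.4 CPM, the others at 881 to 907), and for mir-23a Q50 male replicate 4 at 10 months (353.13 CPM, the others at 308 to 314).

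Of the 4 libraries left out of the tests, 3 had a member above every one of the 22 retained 10-month controls. Q92 male replicate 2 was above them for 4 members, with mir-23b at 2211.6 CPM (controls up to 1264), mir-23a at 998.28 CPM (up to 389), mir-24-1 at 74.686 CPM (up to 50.7) and mir-27a at 1205.5 CPM (up to 943). WT of the Q20 line male replicate 3 was above them for mir-23b at 2515.9 CPM, mir-23a at 1144.1 CPM and mir-24-1 at 65.284 CPM. Q92 female replicate 1 was above them for mir-23a at 426.0 CPM. In each of these libraries mir-27b was within the range of the controls.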

How the results depend on the processing

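Of the 5 members tested, 5 were called for age, and 3 with all libraries kept, with library totals alone and without the abundance filter; mir-23a then had 0.0048, 0.0201 and -0.0501 on the log2 scale, and mir-23b -0.0342, 0.0104 and -0.0606. For sex at 10 months the count was 1, against 0 with DESeq2 size factors, the DESeq2 Wald test, all libraries kept and Z.k computed over all hairpins (chosen after seeing the data), and 2 with library totals alone; with all libraries kept mir-23a was at 0.0967, against -0.07. For sex at 6 months it was 0, against 1 with the Wald test, library totals alone, no lane tag and that other Z.k. For CAG length at 10 months it was 1, against 2 with the Wald test and library totals alone, and 0 with Q20 alone or WT alone as controls, all libraries kept and no abundance filter. For Q140 at 10 months it was 0, against 1 with the Wald test and library totals alone. For Q92 at 10 months it was 1, against 0 with all libraries kept. For Q92 combined it was 0, against 1 with the Wald test, Q20 alone as controls, no lane tag and that other Z.k. The r of mir-23b and mir-27a was -0.028 with TMM-scaled CPM. The cause of these changes was not tested, apart from the samples or hairpins that a setting removes. Leaving out each library in turn gave counts from 0 to 2 for CAG length at 10 months, 0 to 1 for Q140 at 10 months, Q92 combined and sex at 6 months, and 1 to 2 for sex at 10 months, and the other counts did not move. Over all hairpins, 8 were called for CAG length at 10 months, against 17 with the Wald test, 18 with library totals alone, 17 with Q20 alone, 0 with WT alone and 4 without the filter. For Q92 at 10 months 4 were called, against 8, 12 and 1 with the Wald test, Q20 alone and WT alone, and 7 with the replicate block. For Q140 at 10 months 5 were called, against 10, 8, 21, 0 and 3 with the Wald test, library totals alone, Q20 alone, WT alone and all libraries kept. In the other genotype comparisons and the interactions, 0 to 6 were called under any of these settings. Ratio tests past the threshold ran from 2 to 3 of 8 and relations from 5 to 6 of 10. Libraries of different groups with the same replicate number had a mean correlation of 0.000582 in their deviations, against 0.000368 for other numbers. No pairing of the mice by number was seen in these means, which cannot exclude one. With the replicate block 5 members were called for age, and the counts of calls among members did not change. Counting error weighs most on mir-24-1, with as few as 88.6 counts in a library, and mir-24-2 was tested only without the filter or with counts not rounded, where it was not called.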
